A study of Mus musculus with 15 samples.

Results

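The chromatin of 9 tumour suppressor genes was read from peak lists of EL4 cells: Cdkn2a, Cdkn2b, Cdkn1a, Cdkn1b, Rb1, Trp53, Fbxw7, Phf6 and Tet2. The genes were taken by name from 49554 RefSeq genes on the autosomes and chromosome X, and each was examined over its RefSeq span on GRCm38 plus 20 kb on either side (its window). EL4 is an established murine T lymphoma line (ATCC TIB-39), labelled C57BL/6N, and all cells were untreated and unmodified. The lists cover ChIP-seq for H3K4me3, H3K9ac, H3K27ac, H3K36me2 and H3K27me3 and ATAC-seq, with 2 replicates each, or 12 lists in all. These samples contain no second condition, so the comparisons below are between marks, between loci and with all other genes, and no test was made.

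The members act in linked growth control routes. The INK4 proteins p16Ink4a (Cdkn2a) and p15Ink4b (Cdkn2b) bind the kinases CDK4 and CDK6, and the CIP/KIP proteins p21 (Cdkn1a) and p27 (Cdkn1b) act mainly on cyclin E and cyclin A complexes with CDK2, so that the retinoblastoma protein (Rb1) stays bound to E2F factors. Cdkn2a also encodes p19Arf from its own first exon, which shields p53 (Trp53) from the ubiquitin ligase MDM2, and p53 in turn activates Cdkn1a. Fbxw7 is the substrate receptor of an SCF ubiquitin ligase that removes cyclin E, Myc and active Notch1, Phf6 is an X-linked chromatin protein and Tet2 oxidises 5-methylcytosine, and all of these are known targets of loss in T cell leukaemia or other blood cancers. H3K4me3, H3K9ac and H3K27ac mark active promoters (H3K27ac also active enhancers), ATAC-seq marks open DNA, H3K36me2 lies broadly over active and intergenic chromatin, and H3K27me3 is the Polycomb mark of silent genes.

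The sequences before the starts of the INK4 and CIP/KIP genes are shown first because in this group a start without active marks (Cdkn2a, the first Cdkn1a start) can be read beside a marked one. Each run is the 250 bases before a RefSeq start (GRCm38.p6, RefSeq), written 5′ to 3′ on the strand of the gene, with capitals for every CG dinucleotide.
Cdkn2a, p16Ink4a start, chr4:89282193-89282442, minus strand: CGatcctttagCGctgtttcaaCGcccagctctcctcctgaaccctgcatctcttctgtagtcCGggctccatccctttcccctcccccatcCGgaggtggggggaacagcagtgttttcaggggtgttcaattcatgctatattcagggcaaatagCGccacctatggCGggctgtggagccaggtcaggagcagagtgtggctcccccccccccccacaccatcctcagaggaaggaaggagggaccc
Cdkn2a, p19Arf start, chr4:89294620-89294869, minus strand: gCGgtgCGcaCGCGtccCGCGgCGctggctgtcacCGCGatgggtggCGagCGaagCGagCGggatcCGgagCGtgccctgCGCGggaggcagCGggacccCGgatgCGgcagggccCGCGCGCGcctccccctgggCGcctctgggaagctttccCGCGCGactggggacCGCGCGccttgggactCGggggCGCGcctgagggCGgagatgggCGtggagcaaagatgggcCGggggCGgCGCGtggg
Cdkn2b start, chr4:89311033-89311282, minus strand: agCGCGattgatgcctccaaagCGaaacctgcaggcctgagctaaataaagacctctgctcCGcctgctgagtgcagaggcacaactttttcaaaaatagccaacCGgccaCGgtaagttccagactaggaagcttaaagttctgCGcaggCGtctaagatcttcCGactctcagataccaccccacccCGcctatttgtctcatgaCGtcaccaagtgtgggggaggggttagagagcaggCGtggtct
Cdkn1a, second start, chr17:29093519-29093768, plus strand: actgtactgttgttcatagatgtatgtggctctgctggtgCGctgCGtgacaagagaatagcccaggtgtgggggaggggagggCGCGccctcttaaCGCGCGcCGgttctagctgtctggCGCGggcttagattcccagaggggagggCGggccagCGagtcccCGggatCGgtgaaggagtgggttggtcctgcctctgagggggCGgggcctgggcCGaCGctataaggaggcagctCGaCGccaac
Cdkn1b start, chr6:134920151-134920400, plus strand: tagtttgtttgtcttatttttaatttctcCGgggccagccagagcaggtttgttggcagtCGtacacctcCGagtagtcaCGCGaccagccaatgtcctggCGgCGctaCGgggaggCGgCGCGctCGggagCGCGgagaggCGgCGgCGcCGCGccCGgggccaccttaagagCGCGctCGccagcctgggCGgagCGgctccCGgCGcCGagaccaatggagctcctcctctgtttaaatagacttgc
The p19Arf run held 40 CG dinucleotides and the p16Ink4a run 7, against 12 for Cdkn2b, 19 for the second start of Cdkn1a, 28 for Cdkn1b and a median of 6 over 32619 promoters. The letters GGGCGG (the core of an Sp1 site, searched on both strands) occurred in the p19Arf, Cdkn1a and Cdkn1b runs and not in the other runs, and in 33.0% of all promoters. The letters TATAAA occurred in none of these runs and in 12.4% of all promoters. In the first Cdkn1a run, shown next, capitals mark instead a match to CATGNNNNNNCATG, a spaced pair of the core letters of p53 response elements.
Cdkn1a, first start, chr17:29090729-29090978, plus strand: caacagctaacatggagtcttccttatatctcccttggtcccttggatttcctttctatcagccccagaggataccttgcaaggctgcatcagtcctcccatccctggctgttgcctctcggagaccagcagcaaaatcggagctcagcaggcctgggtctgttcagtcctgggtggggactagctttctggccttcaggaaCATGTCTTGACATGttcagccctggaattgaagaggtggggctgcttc
This match lay 48 to 35 bases before the first start and 2.84 kb before the second, at chr17:29090931-29090944, and 0.494% of all promoters held such a pair on either strand. A match of letters is a description of the sequence and not a binding site.

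The lists held between 17519 (ATAC-seq, replicate 1) and 46015 (H3K27me3, replicate 1) intervals, without scores or read counts, so the depth behind each interval is unknown. The T lineage label held at the marker genes: all 8 T lineage markers carried H3K4me3 in both replicates at a start, against 0 of 6 B lineage, 0 of 5 myeloid and 1 of 3 erythroid markers (Klf1).

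At the starts, 8 of the 9 genes carried the full set of active marks and 1, Cdkn2a, carried none. A start was read from 3 kb upstream to 2 kb downstream of the RefSeq start, and a mark was counted where both replicates had an interval. H3K4me3, H3K9ac, H3K27ac and ATAC-seq were each present at 8 of 9 members, beside 36.2, 35.7, 36.2 and 32.3% of the 26794 genes with a RefSeq start. All of these together were present at the same 8 members and at 31.6% of genes. Among protein-coding genes, as all members are, the shares of the single assays were 47.0, 46.4, 46.6 and 42.6%. For Rb1 and Phf6 the start used here was either end of the gene, a wider reading than for the genes compared. The marks lay at the high-coordinate end of Rb1 and the low-coordinate end of Phf6. H3K36me2 was present at a start in 4 of 9 members (Cdkn2b, Rb1, Trp53 and Fbxw7), beside 23.4% of genes. Within 1 kb of a start it was present at 1 (Cdkn2b), where the nearest interval of replicate 2 began 0.969 kb away. The share of all genes within 1 kb was not computed. With ATAC-seq intervals of at least 500 bp only, 4 members had 1 at a start in both replicates. The share of all genes at this width was not computed. The median ATAC-seq interval was 418 bp wide in replicate 1 and 428 bp in replicate 2, below this cutoff. H3K27me3 was present in both replicates at 0 of 9 members, beside 11.0% of genes, and in either replicate at 1 (Rb1), beside 18.9%.

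**Figure D1:**
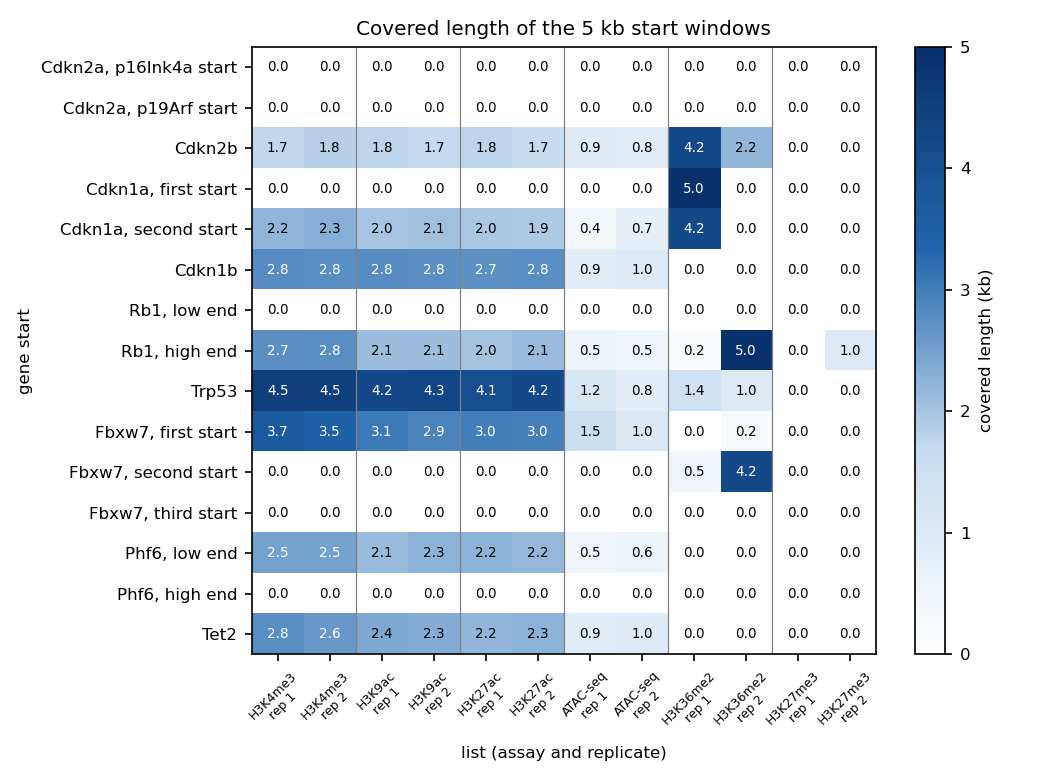
Covered length (kb, colour and printed number) of the 5 kb window at each RefSeq start or gene end (rows) in each of the 12 lists (columns). Both Cdkn2a rows are 0 throughout, the other members have 1 row with all active marks, and H3K27me3 appears in 1 cell, Rb1 replicate 2.

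Over the whole windows the picture was fuller. H3K4me3, H3K9ac, H3K27ac and ATAC-seq each had an interval in both replicates in 9 of 9 windows, beside 44.8, 43.2, 45.1 and 41.4% of all 49554 genes in windows built the same way. H3K36me2 was present in 8 of 9 windows, all but that of Phf6, beside 44.6% of genes. With flanks of 5 kb it was present in 5, and the share of all genes at that flank was not computed. H3K27me3 was present in both replicates in 0 of 9 windows, beside 28.7% of genes, and in either in 1, beside 38.2%. These shares include noncoding genes, whereas all 9 members are protein-coding, and window length was not matched. Of autosomal protein-coding genes, 35.6, 36.9, 35.3 and 35.8% had no H3K4me3, H3K9ac, H3K27ac and ATAC-seq interval, respectively, in the window in either replicate. For H3K36me2 this share was 33.2% and for H3K27me3 58.1%. No window was wholly unmarked, and none was covered by H3K27me3. The windows of Cdkn2a and Cdkn2b overlap, so that the same intervals count for both.

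Each gene span also held intervals of H3K4me3, H3K9ac and H3K27ac in both replicates. The share of all gene spans with these marks was not computed. Uniquely aligned reads therefore came from some part of each of the 9 genes, and the rest of a span is not covered by this. H3K4me3 covered from 0.947% (Fbxw7) to 85.7% (Cdkn1b) of the span (mean of 2 replicates). Peak lists without read counts do not show the loss of 1 allele, of a shorter stretch or of a region that carries no mark, and a deleted and an unmarked stretch cannot be told apart in them. The longest stretch without any interval of the 12 lists that touched a member had a median of 5.8 kb over the members. Over all genes, which include noncoding genes and pseudogenes and were not matched for length, the median was 17.8 kb. These values depend on how many lists are used: with replicate 2 alone the medians were 11.6 and 26.6 kb, with replicate 1 alone 18.5 and 27.2 kb, and without the broad lists 56.6 and 172 kb, of which the values over all genes were added after the data were seen.

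Cdkn2a was the member without a marked start. It lies on the minus strand of chromosome 4 (89274473-89294619), with the p16Ink4a start at 89282192 and the p19Arf start at 89294619, and neither start window held an interval of any of the 12 lists, a state shared by 35.8% of the 26794 genes. Its window did hold H3K4me3, H3K9ac and H3K27ac in both replicates, and 14.6% of genes likewise had these in the window with no active mark at a start. The only marks within the gene were small: H3K4me3 at 89286656-89287303 (0.648 kb) in replicate 1 and 89286581-89287307 (0.727 kb) in replicate 2. H3K9ac covered 0.312 and 0.451 kb and H3K27ac 0.433 and 0.420 kb of the same place, which lies between the 2 starts, 4.39 to 4.54 kb from the p16Ink4a start and 7.31 to 7.57 kb from the p19Arf start. ATAC-seq had no interval there in either replicate. A further cluster of the same marks lay just past the 3′ end of the gene, where H3K4me3 covered 1.73 and 1.78 kb, H3K9ac 1.48 and 1.47 kb and H3K27ac 1.48 and 1.54 kb. It also had no ATAC-seq interval, and the only open site of the window was that of Cdkn2b, 15853 and 15963 bp from the p19Arf start.

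No H3K36me2 lay within Cdkn2a in either replicate, as for 65.6% of all gene spans, and the nearest H3K27me3 interval was 146 and 145 kb from the gene. The spans compared include noncoding genes and pseudogenes and were not matched for length. The longest stretch without any interval ran from 89287308 to 89301000 (13.7 kb) and held the p19Arf start; 54.4% of all genes touched a stretch at least as long. Of the 429 RefSeq starts with 40 or more CG dinucleotides in the 250 bases before them, as the p19Arf start has, 69.0% carried H3K4me3 in both replicates and 85 (19.8%) had no interval of any list, a comparison chosen after the values were seen. Among the 20208 starts with fewer than 10, as the p16Ink4a start has, these shares were 15.3% and 47.3%.

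Cdkn2b, the neighbour of Cdkn2a on the same strand (89306289-89311032), was marked at its start in both replicates. H3K4me3 spanned it with 1.73 and 1.83 kb, H3K9ac with 1.56 and 1.69 kb and H3K27ac with 1.77 and 1.67 kb. The ATAC-seq interval over the start was 0.931 kb in replicate 1 and 0.831 kb in replicate 2. These were ordinary widths: the H3K4me3 interval had a mean of 1.78 kb ± 0.0707 (SD, n = 2), and 41.0% of the 9712 genes with H3K4me3 at a start had a narrower one, while for ATAC-seq the figure was 80.4% of 8662 genes. H3K36me2 flanked the start on both sides and covered 90.9 and 61.4% of the gene. Upstream it lay 0.369 kb from the start in replicate 1 and 0.969 kb in replicate 2, and on the gene side 433 and 1833 bp.

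**Figure D2:**
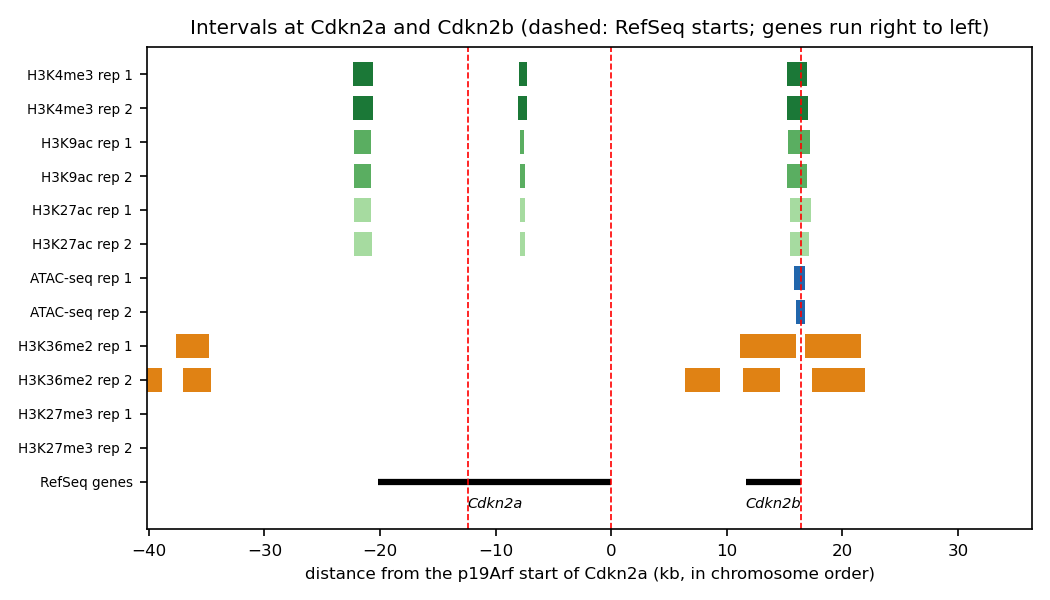
Intervals of the 12 lists (rows) from 20 kb below Cdkn2a to 20 kb above Cdkn2b, by distance from the p19Arf start (kb); dashed lines are RefSeq starts and black bars the genes. Both Cdkn2a starts stand clear of every interval, and the active marks line up at Cdkn2b, at the small site within Cdkn2a and past its 3′ end.

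Cdkn1a, the p53 target that encodes p21, lies on the plus strand of chromosome 17 (29090979-29100722) and was marked at the second of its RefSeq starts (29093769) and not at the first (29090979). H3K4me3 covered 29093550-29095978 (2.43 kb) in replicate 1 and 29093475-29095943 (2.47 kb) in replicate 2, and H3K9ac and H3K27ac covered between 2.04 and 2.22 kb of the same place. At the first start no interval of H3K4me3, H3K9ac, H3K27ac or ATAC-seq fell into the start window, and the nearest was 2.5 kb away. The CATG pair printed above lay outside every interval of these lists and inside 1 H3K36me2 interval of replicate 1.

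Open DNA at Cdkn1a lay beside the second start more than on it. An ATAC-seq site at 29095391-29095782 (0.392 kb) in replicate 1 and 29095291-29095821 (0.531 kb) in replicate 2 stood 1.62 and 1.52 kb from that start, and only replicate 2 had a further site over the start itself, 0.248 kb wide. Upstream stood 3 clusters of active marks, each with H3K4me3, H3K9ac, H3K27ac and ATAC-seq in both replicates, and their ATAC-seq sites lay 8.61 to 17.7 kb from the first start. Of these, the farthest lies within Trp53cor1, a long noncoding RNA gene (lincRNA-p21), and the middle one at its Cdkn1a-side end. Together, H3K4me3 covered 16.1 and 16.5% of the Cdkn1a window.

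H3K36me2 was the point on which the Cdkn1a replicates parted. Replicate 1 had H3K36me2 at 29086401-29093799 and 29094601-29100999 and so over 91.8% of the gene, and replicate 2 had none in the gene. The base pairs covered in both replicates were 0.0736 of those covered in either, the lowest such share of the 8 members with H3K36me2 (0.207 to 0.797 in the other 7). A statement on H3K36me2 over Cdkn1a therefore rests on 1 library.

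Cdkn1b, which encodes p27, had the widest H3K4me3 of the members at its start (plus strand of chromosome 6, 134920401-134925525). H3K4me3 ran over 134919624-134924611 (4.99 kb) in replicate 1 and 134919633-134924587 (4.96 kb) in replicate 2, and 98.2% of the 9712 genes had a narrower interval at a start (median 1.93 kb). H3K9ac was 3.47 and 3.52 kb wide and H3K27ac 3.20 and 3.48 kb, wider than in 96.3 and 94.2% of the genes compared. The ATAC-seq interval over the start measured 0.852 and 0.961 kb. A further H3K4me3 domain of 6.65 kb in replicate 1 and 6.12 kb in replicate 2 followed at the 3′ end, over the start of the noncoding gene Lockd, with its own ATAC-seq site of 1.02 and 0.971 kb. In all, H3K4me3 covered 27.6 and 26.4% of the window, the highest share of the 9 members, and 89.7 and 81.7% of the gene. No H3K36me2 lay in the gene in either replicate, and it began 9.60 kb past the start in replicate 1 and 12.2 kb in replicate 2.

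**Figure D3:**
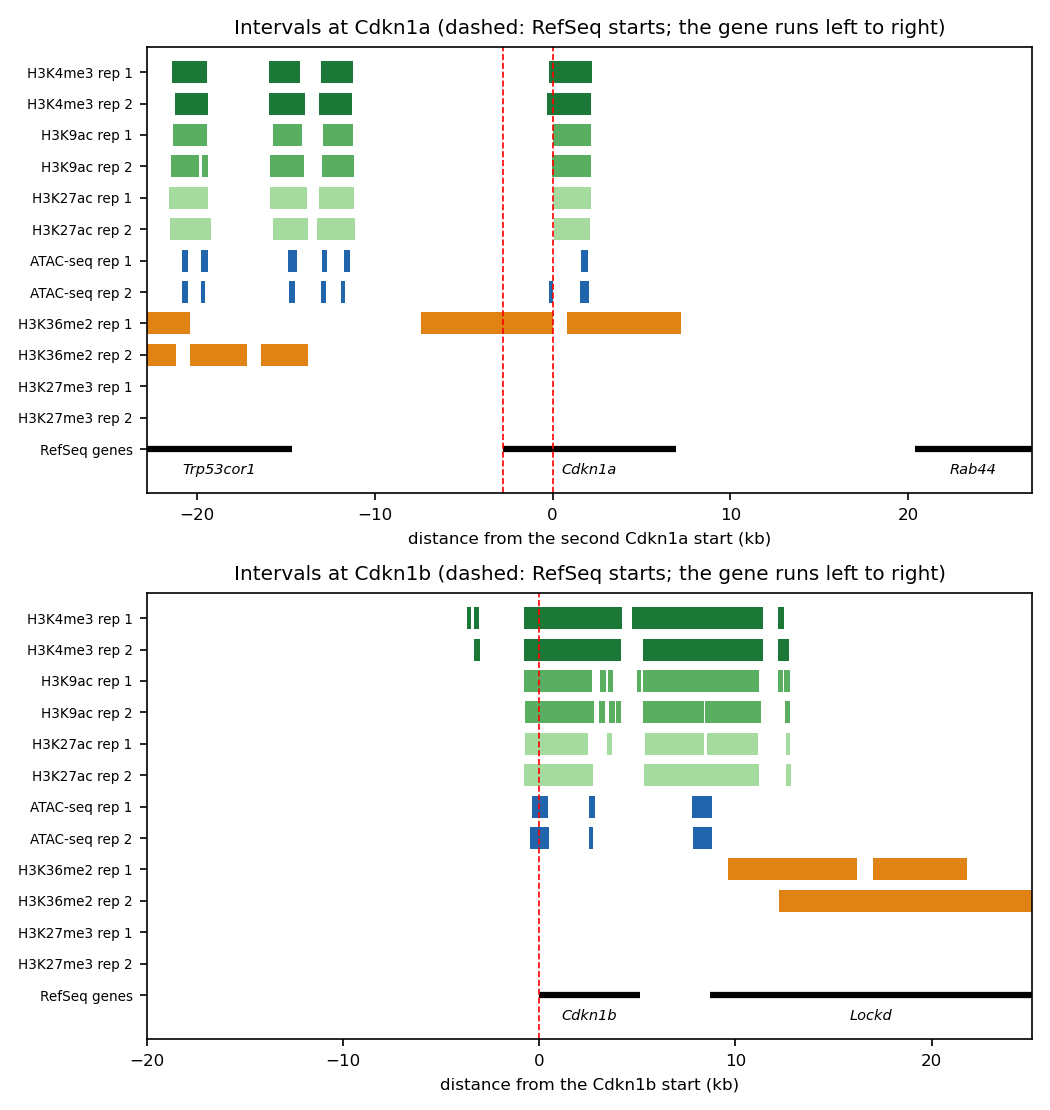
Intervals of the 12 lists in the windows of Cdkn1a (upper panel, distance from its second start) and Cdkn1b (lower panel, distance from its start), in kb; dashed lines are RefSeq starts and black bars genes. Cdkn1a shows 3 upstream clusters and H3K36me2 over the gene in replicate 1 alone, and Cdkn1b shows 2 wide H3K4me3 domains next to each other.

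Rb1, whose product holds E2F factors in check, spans 133 kb of chromosome 14 (73192858-73325951) and was marked at its high-coordinate end. H3K4me3 covered 73324153-73326894 (2.74 kb) and 73324103-73326866 (2.76 kb), H3K9ac 2.09 and 2.10 kb and H3K27ac 2.01 and 2.14 kb. ATAC-seq gave 1 site of 0.537 kb in replicate 1 and 2 smaller sites of 0.2 and 0.274 kb in replicate 2. At the other end none of the active marks came within 44.8 kb.

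The same end of Rb1 held the only H3K27me3 interval of all 9 windows, 73325201-73326199 (0.999 kb), in replicate 2 alone. It lay inside the H3K4me3 interval of both replicates and overlapped the ATAC-seq sites, and in replicate 2 an H3K36me2 interval (73323601-73330399) ran across the whole of it. In replicate 1 no H3K27me3 lay within 114 kb of the gene, and H3K36me2 stopped 2.35 kb short of the gene end. The full pattern of Rb1, with intervals in 11 lists, read at its gene ends, was shared by 33 of the 26794 genes with a RefSeq start (0.123%). Its H3K27me3 part rests on 1 library, and its H3K36me2 in replicate 1 shared only 151 bp with the window at that end. Inside Rb1, H3K4me3 of 3.02 and 3.05 kb lay at Lpar6, a receptor gene for lysophosphatidic acid nested in an Rb1 intron, with H3K9ac and H3K27ac in both replicates and an ATAC-seq site in replicate 1 only. Outside the gene, a small cluster that begins 9099 bp from the high-coordinate end held H3K4me3 (0.917 and 1.00 kb) and H3K27ac (0.463 and 0.405 kb) in both replicates, and H3K9ac and ATAC-seq in replicate 1 only. Beyond it an H3K27ac interval (0.619 and 0.602 kb) stood alone 13599 and 13670 bp from the high-coordinate end, without the other active marks.

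Trp53, which encodes p53, lies on the plus strand of chromosome 11 (69580348-69591873) and had the second widest H3K4me3 of the members. H3K4me3 covered 69577840-69582371 (4.53 kb) and 69577827-69582403 (4.58 kb), and 97.4% of genes had a narrower interval. The interval also spans the start of Wrap53, a gene for a telomerase RNA-binding protein that runs in the opposite direction. H3K9ac and H3K27ac were a single block of 4.22 and 4.08 kb in replicate 1 and were split in replicate 2, where the part over the start measured 2.62 and 2.60 kb. The ATAC-seq sites framed the start in both replicates, 0.755 and 0.757 kb upstream and 0.899 and 0.832 kb downstream, and only replicate 1 had a site of 0.264 kb on the start itself.

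H3K36me2 covered 57.5 and 55.6% of the Trp53 window and 66.6 and 75.2% of the gene, and its replicates overlapped best of all members (0.797 of the base pairs covered in either were covered in both). The start itself was free of H3K36me2, the nearest interval being 1.56 kb away in replicate 1 and 1.84 kb in replicate 2. The nearest H3K27me3 interval lay 24.9 and 22.9 kb from the gene, outside the window, the shortest distance for any member with none in its window in either replicate.

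**Figure D4:**
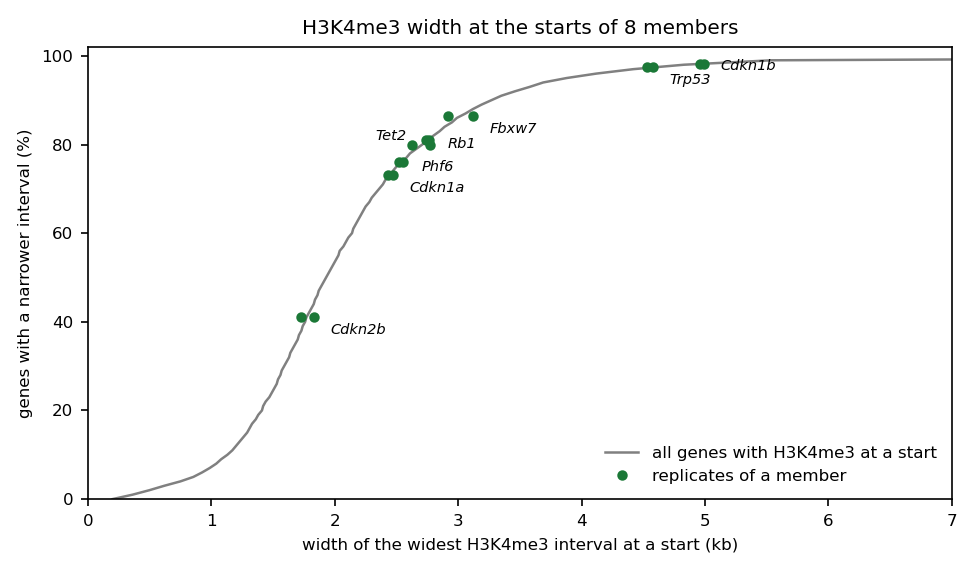
Width of the widest H3K4me3 interval at a start (kb, horizontal) against the percent of 9712 genes with a narrower one (vertical); points are the 2 replicates of each of the 8 members with H3K4me3 at a start and the line is the distribution over all genes. Trp53 and Cdkn1b lie at the far right, and Cdkn2b lies below the median of 1.93 kb.

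Of the 8 members marked at a start, 7 had a wider H3K4me3 interval than the median gene. Fbxw7 followed Cdkn1b and Trp53 with 3.12 and 2.92 kb, Rb1 and Tet2 lay next, Phf6 had 2.52 and 2.55 kb and Cdkn1a 2.43 and 2.47 kb. The SD of the replicates was at most 0.143 kb (n = 2, Fbxw7). The steps from Cdkn1b to Trp53 to Fbxw7 were larger than this spread, whereas Rb1 (2.75 kb ± 0.0156) and Tet2 (2.70 kb ± 0.0962) do not differ beyond it.

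Fbxw7, the SCF substrate receptor, spans 164 kb of chromosome 3 (84814990-84979198, plus strand) and was marked at the first of its 3 RefSeq starts (84815577). Besides H3K4me3, H3K9ac measured 2.72 and 2.58 kb and H3K27ac 2.52 and 2.56 kb there, and ATAC-seq gave 3 sites in replicate 1 and 2 in replicate 2. The second start (84864145), with 1 CG dinucleotide in the 250 bases before it, and the third (84952211), with 6, held no active mark in either replicate. Within the gene the only active marks away from the first start were small H3K27ac intervals of 0.244 and 0.202 kb, which did not overlap between replicates, and an ATAC-seq site of 0.465 kb in replicate 2. H3K36me2 covered 47.3 and 62.5% of the window in 14 and 16 intervals, and its presence at a start in both replicates was at the second start, which had no active mark.

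Tet2, the 5-methylcytosine dioxygenase, lies on the minus strand of chromosome 3 (133463677-133545136) with its start at 133544390, which had 51 CG dinucleotides in the 250 bases before it. H3K4me3 covered 133542604-133545373 (2.77 kb) and 133542713-133545346 (2.63 kb), H3K9ac 2.39 and 2.34 kb, H3K27ac 2.20 and 2.26 kb and ATAC-seq 0.908 and 0.985 kb. This was the only H3K4me3, H3K9ac or H3K27ac interval of the window in either replicate. A second open site lay upstream at 133563542-133564182 in replicate 1 and 133563504-133563996 in replicate 2, 19.2 and 19.1 kb from the start, with none of the 5 histone marks. H3K36me2 covered 55.2 and 60.5% of the gene and stopped 3.99 and 2.99 kb short of the start.

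Phf6 was the member with the fewest intervals. It lies on chromosome X (52912214-52956961), and its low-coordinate end carried H3K4me3 of 2.52 and 2.55 kb, H3K9ac of 1.58 and 2.27 kb, H3K27ac of 2.25 and 2.19 kb and ATAC-seq of 0.490 and 0.550 kb. Apart from 2 small pieces of H3K4me3 and H3K9ac next to these in replicate 1, the window held no other interval, and a stretch from 52914804 to 52987612 (72.8 kb), which runs past the window, was empty in all lists. Neither H3K36me2 nor H3K27me3 lay in the window, and the nearest H3K36me2 was 1230 kb from the marked end in replicate 1 and 4410 kb in replicate 2.

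The absence of H3K36me2 at Phf6 was common on its chromosome. Of 966 protein-coding genes of chromosome X, 81.7% had no H3K36me2 in either replicate in their window, against 33.2% of autosomal ones, and 77.9% of the genes of chromosome X touched an unmarked stretch as long as that of Phf6, against 26.7% of all genes. H3K4me3 was also missing from more windows on X (58.8%) than on autosomes (35.6%), by a smaller margin. The study's methods state that reads on the sex chromosomes were discarded. The lists nevertheless held between 331 and 732 intervals each on chromosome X. The part of this step in the values at Phf6 was not tested.

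**Figure D5:**
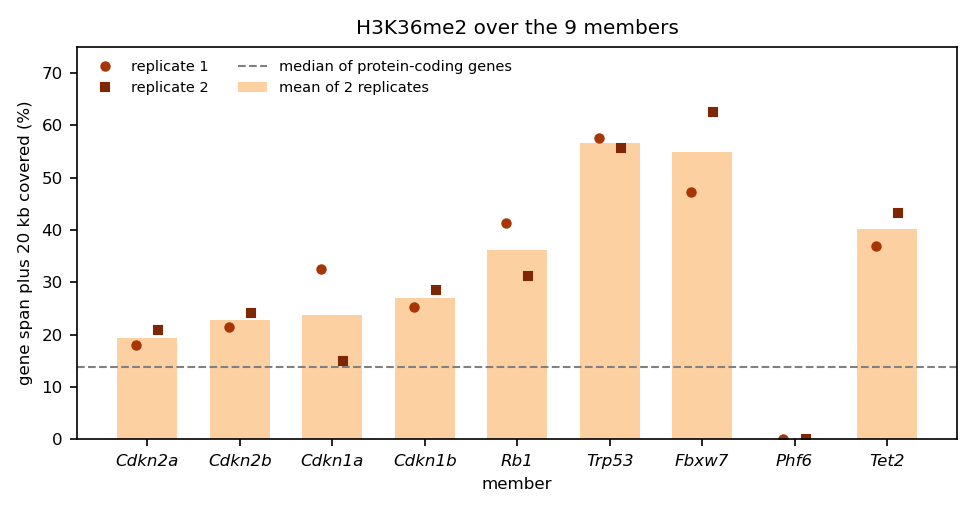
Percent of each window covered by H3K36me2 (vertical) for the 9 members (horizontal), with bars for the mean of 2 replicates, points for each replicate and a dashed line for the median of 21631 protein-coding genes (13.8%). Phf6 is at 0 in both replicates, Trp53 and Fbxw7 are highest, and the replicates stand furthest apart at Cdkn1a.

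H3K36me2 covered a median of 27% of the members' windows, beside 1.11% over all genes and 13.8% over protein-coding genes. The order of the means, from high to low, was Trp53 (56.6% ± 1.37), Fbxw7 (54.9% ± 10.7), Tet2 (40.2% ± 4.42), Rb1 (36.2% ± 7.19), Cdkn1b (27% ± 2.39), Cdkn1a (23.8% ± 12.5), Cdkn2b (22.8% ± 1.89), Cdkn2a (19.4% ± 2.03) and Phf6 (0 in both replicates), each with the SD of 2 replicates. Neighbours in this order overlapped within their SD, other than Phf6. H3K4me3 covered a median of 5.51% of the members' windows, from 2.22% (Fbxw7 and Tet2) to 27% (Cdkn1b), beside 2.12% over protein-coding genes.

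H3K36me2 and H3K4me3 shared little ground at some members and more at others. Over the whole lists, 24.9 and 21.0% of the H3K4me3 base pairs also carried H3K36me2. At Fbxw7, Phf6 and Tet2 none did in either replicate, and at Rb1 the share was 0% in replicate 1 and 40.6% in replicate 2. At Cdkn1a it was 33.3 and 37.5%, although from different places: replicate 1 includes the gene itself and replicate 2 only the upstream clusters. The acetyl marks shared more: 66.6 to 91.7% of the members' H3K4me3 base pairs also carried H3K9ac (79.4 and 80.1% over the whole lists) and 70.7 to 95.2% also carried H3K27ac (80.1 and 81.4% over the whole lists). For H3K4me3 itself, the base pairs covered in both replicates were 0.898 to 0.985 of those covered in either at the members.

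The other genes of these routes were mostly marked as well. Of 55 genes in 7 pathway lists, 54 were found (Skp1a was not matched), of which 43 had a RefSeq start. Of these 43, a subset taken after the data were seen, 38 had H3K4me3, 38 H3K9ac, 38 H3K27ac and 37 ATAC-seq in both replicates at a start, beside the 36.2, 35.7, 36.2 and 32.3% of genes given above. H3K36me2 was present at 23, beside 23.4% of genes, and H3K27me3 at 0, beside 11.0%. The other pathway genes were read over both gene ends, a wider window, and with them the counts were 48, 47, 49 and 46 of 54 for the active marks, 28 for H3K36me2 and 1 for H3K27me3. All 14 genes of the retinoblastoma list (pocket proteins, E2F factors, cyclins D and E and their kinases) and all 7 upstream p53 genes (Mdm2, Mdm4, Atm, Atr, Chek1, Chek2 and Usp7) carried all of the active marks. The share over genes with a RefSeq start was 31.6%, and only 10 of the 14 were read at such a start. Ccnd1, the gene of cyclin D1, has no RefSeq start in the table used. Its high-coordinate end held H3K27me3 and all of the active marks in both replicates, and its low-coordinate end held H3K36me2 alone.

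The genes without H3K4me3 in both replicates at a start were Cdkn2d, Pmaip1, Notch1, Tet1, Tet3 and Idh2. Among the other inhibitors, Cdkn2c (p18Ink4c) carried all active marks, and Cdkn1c (p57), read at its gene ends, carried all but H3K9ac in replicate 2. Cdkn2d (p19Ink4d) carried none at its RefSeq start. When either gene end was read instead, Cdkn2d had ATAC-seq in both replicates without the other active marks. In the Tet family only Tet2 was marked at its RefSeq starts, since Tet1 and Tet3 had no active mark there, but Tet3 had all of them when either gene end was read instead. Pmaip1, a p53 target also known as Noxa, had H3K27ac in both replicates at a gene end without the other active marks, and Notch1, a substrate of Fbxw7, had none of them. Idh2 and Tet1 shared the empty pattern of Cdkn2a in all 12 lists at their RefSeq starts, as did 35.8% of genes with such a start. When either gene end was read instead, Tet1 stayed empty and Idh2 had H3K36me2 in both replicates. Cdkn2a then had H3K4me3, H3K9ac and H3K27ac in both replicates. Cdkn1b, Tet2 and, read at its gene ends, Phf6 had 1 common pattern, active marks without H3K36me2 or H3K27me3. Of the genes with a RefSeq start, 2266 (8.46%) had it, among them Atr, Ccng1, Cdk6 and Cdkn2c. Cdkn2b, Trp53 and Fbxw7 had the pattern with H3K36me2 added, which 3991 of the genes with a RefSeq start (14.9%) shared, among them Atm, Ccnd3, Cdk2, Cdk4 and Chd4.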

How the data were processed

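EL4 cells were assayed by ChIP-seq for 5 histone marks and by ATAC-seq, with 2 replicates each. The study's methods call the replicates technical where they describe ATAC-seq and the merging of peaks, so their spread may be technical. The authors aligned reads with STAR (2.5 in the submitters' processing notes), kept unique alignments, and called peaks with macs2 (H3K4me3, H3K9ac, H3K27ac, ATAC-seq) or Epic (H3K36me2, H3K27me3), using the input as the ChIP-seq control. The deposited lists give the chromosome, start and end of each interval in base pairs on GRCm38, per replicate, with no score, count or normalization. Broad intervals lie on bins of 200 bp. Of 15 samples, 12 lists were used, and no file of the input or the RNA-seq libraries was used here.

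Spans came from the RefSeq gene table and starts from the RefSeq promoter table (GRCm38.p6), which gave starts for 7 members. Rb1 and Phf6 were read at either gene end. An interval counted with 1 bp shared. The start window is the promoter window of the study's methods. The named genes are the members, protein-coding neighbours in their windows, and pathway genes without H3K4me3 or with H3K27me3 at a start, with up to 5 genes per shared pattern. Cdkn2c, Cdkn1c and the noncoding neighbours were named after their values were seen. Members and lists were chosen with earlier results of these data known. Counts were checked against bedtools 2.31.1 in 24 comparisons, of which 0 differed, and tested on simulated data. Python 3.11.15, numpy 2.4.6, pandas 2.3.3 and matplotlib 3.10.9 were used. Alternatives were other flanks, start windows, overlaps, interval widths and gene sets, and each replicate left out.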

Additional observations from a re-analysis of the deposited data

How the results depend on the processing

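No paired analysis was possible because no result comes from a test. Of 261 alternative values of 56 results, 190 were labelled the same as the main value and 71 moved. Counts were judged by a fixed ratio to the main value, which is not a measured spread, and percents and lengths by the SD between replicates. With flanks of 5 kb, 5 members had H3K36me2 in the window, the windows held 15, 18, 16.5 and 15 intervals of H3K4me3, H3K9ac, H3K27ac and ATAC-seq (mean of replicates, against 24, 28.5, 27.5 and 24.5 with 20 kb), and the median covered percent was 8.11, 6.15, 6.43 and 1.03, with 34.9 for H3K36me2. With no flank the interval numbers were 11, 13.5, 12.5 and 12. With 50 kb the medians were 3.62, 2.98, 3.04 and 0.996, 1 member had H3K27me3 in both replicates and the windows held 3.5 H3K27me3 intervals. With either replicate enough, H3K27me3 was present at 1 start and in 1 window, and leaving out a replicate gave 0 to 1 for both. Taking 1 kb around the start left H3K36me2 at 1 member, and narrow intervals of at least 500 bp left ATAC-seq at 4 members. The shares of all genes were not computed at these other flanks, start window and interval width. At either gene end Cdkn2a had 3 assays present, from the cluster past its 3′ end, and Cdkn1a had 0, since its second start lies inside the span.

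Among protein-coding genes the shares with a mark at a start were 47.0, 46.4, 46.6 and 42.6% for the active marks, 26.7% for H3K36me2 and 10.1% for H3K27me3, and on autosomes 36.6, 36 and 36.6% for H3K4me3, H3K9ac and H3K27ac, 24.3% and 11.4%. The union and the intersection of replicates gave median covered percents of 5.24 and 4.19 for H3K9ac, 5.06 and 4.54 for H3K27ac and 44.3 and 16.5 for H3K36me2. Leaving out a replicate gave 28.6 to 32.6 for H3K36me2. The median longest unmarked stretch was 56.6 kb without the broad lists and 11.6 to 18.5 kb with 1 replicate, and over all genes, values added after the data were seen, 172 kb and 26.6 to 27.2 kb. With the pathway genes that have a RefSeq start, also added then, 0 had H3K27me3 in both replicates. At Cdkn2a this stretch was 22.5 kb without the broad lists and 18.5 kb without replicate 2. The lists give no depth, so a missing interval cannot be told from one under the authors' calling threshold.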

Other observations

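The windows also held 7 other protein-coding genes. Rcbtb2, below Rb1, carried all active marks and H3K36me2 at its start in both replicates, as did Wrap53, which shares its H3K4me3 interval with Trp53. Atp1b2, above Trp53 (69599728-69605978), encodes a subunit of the sodium pump and carried H3K4me3, H3K9ac, H3K27ac and ATAC-seq in both replicates at a gene end. The next gene, Shbg (sex hormone-binding globulin), carried H3K27me3 in both replicates at its start and none of the active marks, so that the marks of active and of silent chromatin stood at neighbouring genes there. Rab44 and Efnb3 had H3K36me2 alone in both replicates at a gene end. Lpar6, nested in Rb1, carried H3K4me3, H3K9ac and H3K27ac in both replicates.

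Gm12610, a long noncoding RNA gene whose span begins next to the p19Arf start and runs past Cdkn2b (89295180-89518621), had no interval of any list at its start in either replicate, as Cdkn2a had none. Gm35486, a noncoding gene whose span ends just below that of Fbxw7, carried all active marks in both replicates. Its span overlaps the H3K4me3 interval at the first Fbxw7 start (84813520-84816642 in replicate 1), so its marks are not separate from those of Fbxw7. Gm12610 and Gm35486 were named after their values were seen.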
